A study of Mus musculus with 14 samples.

Results

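Phosphatidylcholine is the main phospholipid of cell membranes, of bile and of the lipoproteins that the liver secretes. The liver makes it from choline along the CDP-choline branch and, to a degree that few other tissues share, by methylating phosphatidylethanolamine with *S*-adenosylmethionine. When phosphatidylcholine is broken down, glycerophosphocholine is left, which *Gpcpd1* (glycerophosphocholine phosphodiesterase 1) splits into choline and glycerol 3-phosphate. Choline can enter a new round of synthesis, or it can be oxidised in mitochondria to betaine, a methyl donor for the remaking of methionine. The level of *Gpcpd1* and of 9 other genes of these steps was examined in liver, together 10 of the 55487 genes in the deposited count table. They were selected by gene name, and all 10 had enough reads to enter the test, which covered 12653 genes. The selection was made with the difference between the treatment groups already known, *Gpcpd1* having the second smallest unadjusted *p* of all genes tested. Fold changes of the 10 genes are therefore given as a description, and no *p* value of theirs for this comparison is used as evidence.

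The libraries came from the right liver lobe of 14 male TALLYHO mice, an inbred polygenic model of type 2 diabetes in which males develop glucose intolerance and insulin resistance, aged 8 to 12 weeks. Of these, 7 received vehicle (water) and 7 received indole at 20 mg/kg, both by oral gavage, in 2 doses per day for 7 days with further dosing between the metabolic tests that preceded tissue collection. All 14 mice shared this strain, so every comparison was made within diabetes-prone animals. The deposited values are counts of uniquely mapped reads on GRCm38, the genome of another strain.

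Between 15390922 and 21060376 reads per mouse were counted with vehicle and between 15197498 and 18464326 with indole. The 6 hepatocyte markers summed to at least 70480 CPM (reads of a gene scaled to library size) in every mouse. Markers of other cell types were present at lower levels in both groups. The 12 Kupffer cell and macrophage markers summed to between 124.9 and 297.8 CPM with vehicle and between 149.8 and 548.2 CPM with indole, where the highest value was that of mouse G8 and the next was 249.3 CPM. Of these 12 markers 11 were higher with indole, and 0 had an unadjusted *p* below 0.05 (edgeR). The 5 erythroid markers summed to between 204.0 and 383.9 CPM with vehicle and between 263.1 and 1092 CPM with indole. Mice G5 (1092 CPM) and G14 (1046 CPM) were the highest, while G3, G7 and G8, from 263.1 to 287.0 CPM, lay within the vehicle range. All 5 markers were higher with indole at an unadjusted *p* below 0.05 (edgeR), as were 1.53% of all genes tested. No gene tested had an adjusted *p* below 0.05 (edgeR). Of the sinusoidal endothelium markers 7 of 7 were higher with indole, and their sum ran from 60.6 to 105.1 CPM with vehicle and from 69.7 to 131.6 CPM with indole. Of the stellate cell markers 2 of 7 were higher (102.1 to 137.6 CPM with vehicle, 62.2 to 152.9 CPM with indole), and of the bile duct markers 0 of 5 tested (33.2 to 47.0 CPM with vehicle, 27.5 to 46.3 CPM with indole), with 1 gene of each of these 3 lists at an unadjusted *p* below 0.05. T, NK and B cell markers summed to at most 4.31 CPM per list in any mouse. In bulk tissue, fewer cells of a type and less RNA per cell cannot be told apart.

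*Gpcpd1* (ENSMUSG00000027346) lies on the minus strand of chromosome 2 from 132529082 to 132587729 and was covered by 963 to 2361 reads per mouse. Levels are given as CPM after TMM scaling, which corrects each library for its composition. In vehicle-treated mice *Gpcpd1* ranged from 84.8 to 112.1 CPM with a median of 96.8 CPM, and in indole-treated mice from 61.0 to 100.3 CPM with a median of 74.0 CPM. In the indole group 6 of 7 values were under the whole vehicle range, from 61.0 CPM in G7 to 77.6 CPM in G8. The groups overlapped through a single animal, indole-treated mouse G14 at 100.3 CPM, which lay above the vehicle median. Groups that do not overlap at all were found for 0.0474% of the genes tested, a share that does not apply to *Gpcpd1*. The share of all genes with a partial separation was not counted. Here and below, counts of mice beyond the range or median of the other group are therefore descriptions. The group means were 99.0±9.92 CPM (SD, *n*=7) for vehicle and 75.1±12.9 CPM (SD, *n*=7) for indole, 24.1% lower with indole. On the log2 scale the fold change was −0.40, with a standard error (SE) of 0.0963.

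The *Gpcpd1* difference was also computed with each mouse left out in turn. With 6 of 7 indole values under the whole vehicle range, this could hardly change its sign, and only the size is described. The log2 fold change then ranged from −0.48, without G14, to −0.35, without G7. It was −0.42 (SE 0.107) without mice G8 and G11, which were left out together because earlier results had set them apart. Within groups, the level of *Gpcpd1* had Pearson correlations with the summed markers of 8 cell types that ran from −0.357 for stellate cells to 0.202 for hepatocytes across the 14 mice, which share their scaling and depth. The correlation was 0.188 for erythroid markers and 0.148 for macrophage markers. These correlations are descriptions, and the part of any cell type in the difference was not tested.

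*Gde1* (chromosome 7 from 118688545 to 118705778) encodes a second glycerophosphodiester phosphodiesterase, which acts on other glycerophosphodiesters. It ranged from 33.7 to 50.9 CPM with vehicle (median 42.6 CPM) and from 38.2 to 53.0 CPM with indole (median 47.5 CPM). Vehicle-treated mice G4 and G1 lay below the indole range and indole-treated mouse G5 above the vehicle range, while the other mice overlapped. The log2 fold change was 0.10 (SE 0.0951), opposite in sign to that of *Gpcpd1* and about as large as its own standard error.

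**Figure D1:**
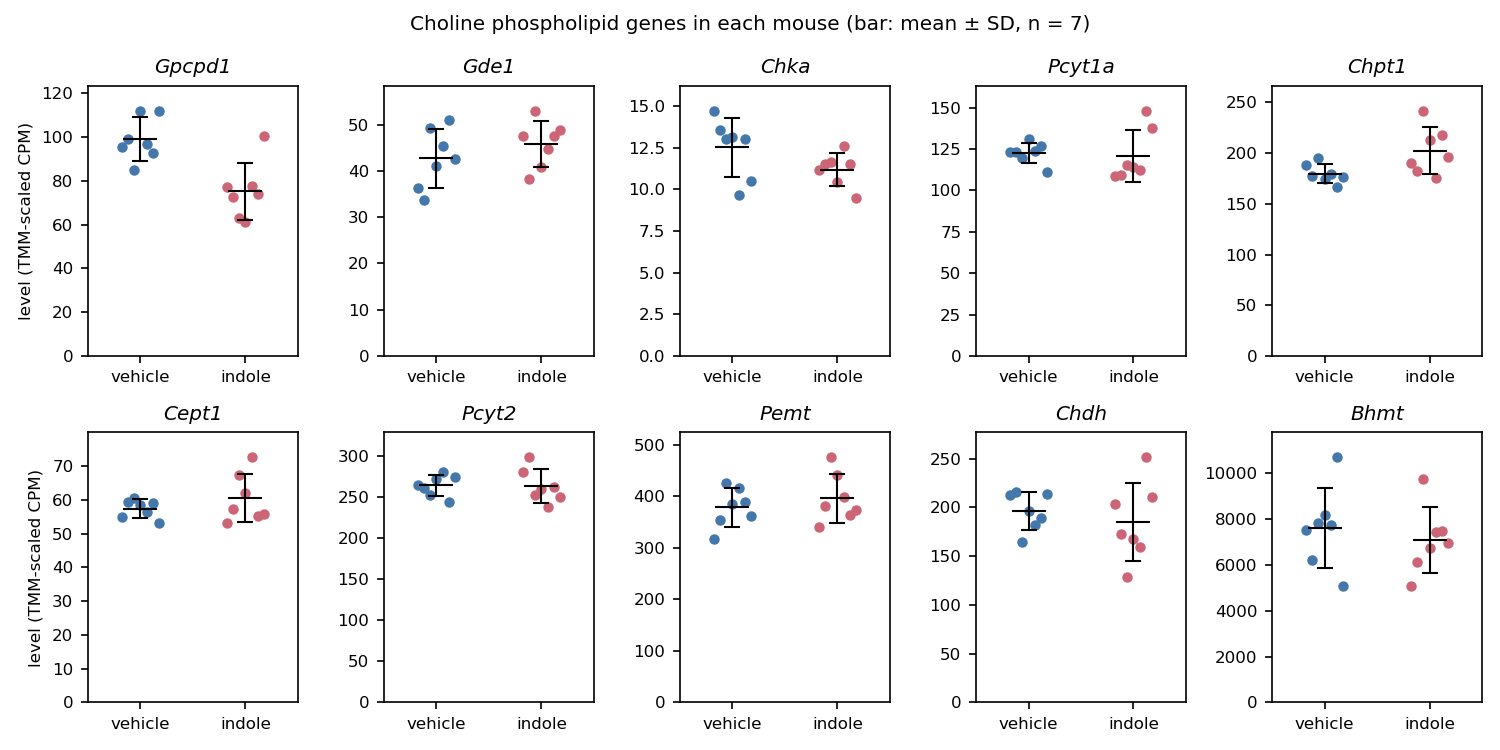
Level of each of the 10 genes in TMM-scaled CPM (vertical axes, each starting at 0), with 1 point per mouse, vehicle in blue and indole in red, and bars for the mean and SD of 7 mice. *Gpcpd1* shows 6 indole-treated mice below all vehicle-treated mice and 1 at 100.3 CPM, and *Chpt1* shows 4 indole-treated mice above all vehicle-treated mice.

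The CDP-choline branch turns choline into phosphatidylcholine in successive steps. Its entry enzyme, choline kinase alpha (*Chka*, chromosome 19 from 3851773 to 3894369), was the scarcest of the 10 transcripts, with 143 to 286 reads per mouse. *Chka* ranged from 9.69 to 14.7 CPM with vehicle (median 13.01 CPM) and from 9.49 to 12.6 CPM with indole (median 11.5 CPM). All 7 indole-treated mice lay below the vehicle median, but 2 vehicle-treated mice, G10 and G13, were as low as they were, and the log2 fold change was −0.16 (SE 0.102). *Pcyt1a*, which encodes the rate-limiting CTP:phosphocholine cytidylyl transferase (chromosome 16 from 32430921 to 32475070), had a mean of 122.8±6.14 CPM (SD, *n*=7) with vehicle and 120.8±15.6 CPM (SD, *n*=7) with indole, and the difference was −0.023 on the log2 scale (SE 0.0770). The indole group spread more widely, since mice G12 and G14 stood at 148.3 and 137.6 CPM, above every vehicle-treated mouse, and the other 5 lay between 108.5 and 115.4 CPM.

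*Chpt1*, the cholinephosphotransferase that joins CDP-choline to diacylglycerol (chromosome 10 from 88452745 to 88504073), ranged from 166.1 to 195.7 CPM with vehicle (median 177.7 CPM) and from 175.4 to 242.0 CPM with indole (median 195.7 CPM). With indole, 6 of 7 values exceeded the median for vehicle and 4 exceeded its whole range, although G14 did so by a very small margin. The means were 179.7±9.57 and 202.4±23.2 CPM (mean±SD, *n*=7 each), 12.7% higher with indole, or 0.17 on the log2 scale (SE 0.0750). Leaving out each mouse in turn gave 0.12 to 0.21. The level of *Chpt1* had a within-group correlation of 0.523 with the summed erythroid markers over the 14 mice. This was not particular to *Chpt1*, since the same correlation was 0.541 for *Gde1*, 0.532 for *Pcyt1a* and 0.491 for *Bhmt*. The summed erythroid markers also had a higher median with indole (495.8 against 290.5 CPM), with overlapping ranges. The part of erythroid markers in the *Chpt1* difference was not tested.

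*Cept1* (chromosome 3 from 106502260 to 106547802) encodes the enzyme that completes both phosphatidylcholine and phosphatidylethanolamine. Its vehicle range was narrow, from 53.0 to 60.6 CPM, and its indole range was wider, from 53.2 to 72.7 CPM, with G8 the highest. The medians were 58.3 and 57.2 CPM, and the log2 fold change of 0.076 was close to its standard error (0.0737). *Pcyt2*, the cytidylyl transferase of the parallel CDP-ethanolamine branch (chromosome 11 from 120610087 to 120617936), varied least of the 10 genes, with a within-group SD of 0.0922 on the log2 scale. It ranged from 243.9 to 279.9 CPM with vehicle and from 237.5 to 298.1 CPM with indole, and its log2 fold change was −0.0067 (SE 0.0662).

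*Pemt* (chromosome 11 from 59970614 to 60046489), whose product methylates phosphatidylethanolamine to phosphatidylcholine, ranged from 316.4 to 426.1 CPM with vehicle and from 339.4 to 475.8 CPM with indole. The medians were 385.4 and 380.6 CPM, and the log2 fold change was 0.067 (SE 0.0852). *Chdh*, the mitochondrial choline dehydrogenase that diverts choline to betaine (chromosome 14 from 30009023 to 30040527), ranged from 164.3 to 215.6 CPM with vehicle and from 128.6 to 251.7 CPM with indole. Both the lowest mouse, G5, and the highest, G12, were indole-treated, and the log2 fold change was −0.086 (SE 0.115). *Bhmt*, which passes a methyl group of betaine to homocysteine (chromosome 13 from 93616675 to 93637961), ranged from 5072 to 10689 CPM with vehicle and from 5067 to 9753 CPM with indole. Its log2 fold change was −0.10 (SE 0.147). *Bhmt* has a pseudogene, *Bhmt-ps1*, counted at 21.9±5.70 CPM (SD, *n*=7) with vehicle, and reads may have been split between the pair.

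Over the 10 genes, 4 were higher and 6 lower with indole, with a median log2 fold change of −0.015, against a median of 0.0042 over all genes tested, of which 48.7% were lower. The log2 fold change exceeded 2 standard errors in 2 genes, *Gpcpd1* and *Chpt1*, and was smaller than 1 standard error in 5. With edgeR's quasi-likelihood test, those 2 genes were also the members with an unadjusted *p* below 0.05, as were 482 (3.81%) of all genes tested, 2.28% being lower like *Gpcpd1* and 1.53% higher like *Chpt1*. Because the members were chosen on this comparison, nothing is read from that count. No gene, member or other, had an adjusted *p* below 0.05 by edgeR (0%), and the same genes gave 532 unadjusted and 1 adjusted call with DESeq2 and 564 and 0 with limma voom. The single adjusted call was neither a member nor a gene of the pathway lists.

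**Figure D2:**
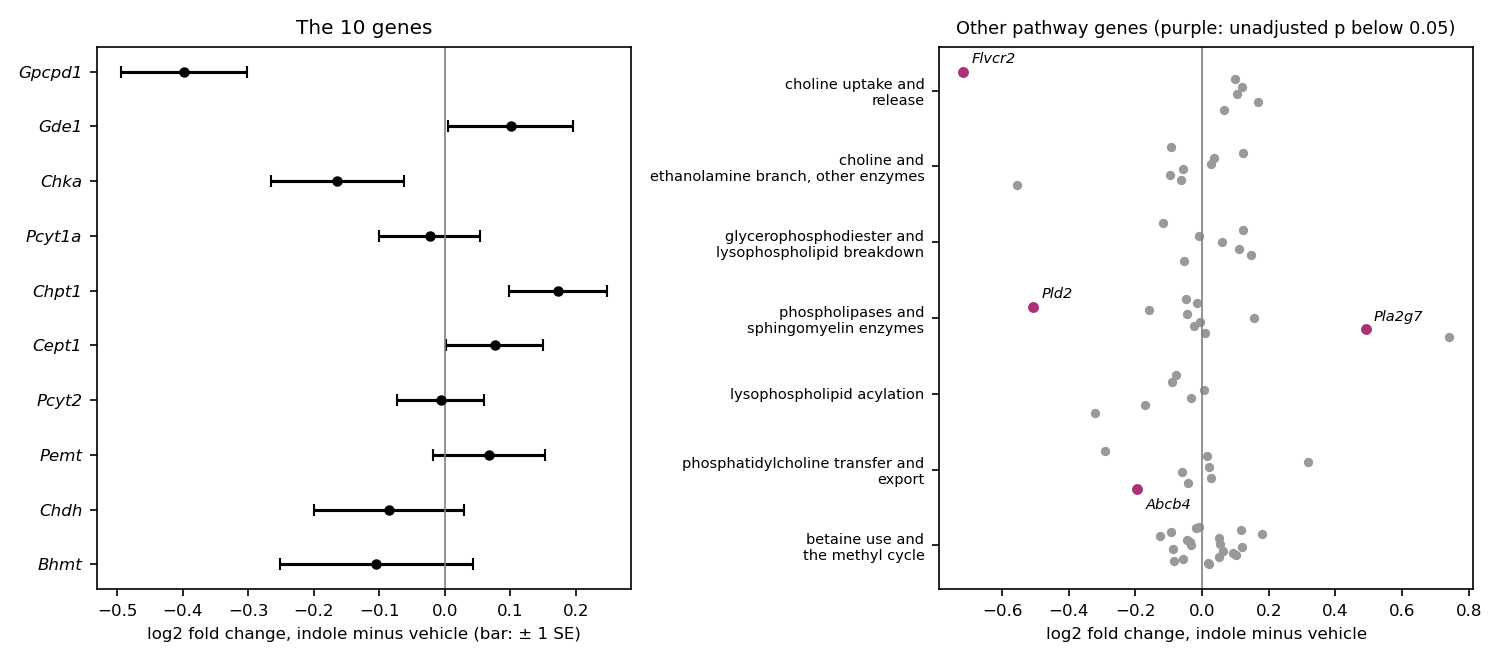
Log2 fold change, indole minus vehicle (horizontal axes), for the 10 genes with bars of 1 standard error (left) and for the 67 other pathway genes tested, by list, 1 point per gene (right). On the left only *Gpcpd1*, at −0.40, and *Chpt1*, at 0.17, lie more than 2 standard errors from 0, and on the right the 4 genes with an unadjusted *p* below 0.05 are in purple and named.

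Other genes of choline and phospholipid handling were taken from 7 lists of 84 genes in all, of which 67 had enough reads to be tested. With edgeR, 4 of the 67 (5.97%) had an unadjusted *p* below 0.05, beside 3.81% of all genes tested, with 1 higher and 3 lower with indole. After Benjamini–Hochberg adjustment over all genes tested, 0 of the 67 had an adjusted *p* below 0.05, with DESeq2 and limma voom giving no adjusted call among them either. In all, 32 were higher and 35 lower, with a median log2 fold change of −0.0093.

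For each of these 4 genes the adjusted *p* was 0.998 (edgeR). *Pld2*, a phospholipase D that releases choline from phosphatidylcholine (chromosome 11 from 70540064 to 70558110), ranged from 3.86 to 6.49 CPM with vehicle and from 2.75 to 4.31 CPM with indole. All 7 indole-treated mice lay below the vehicle median, 3 of them below every vehicle-treated mouse, and the log2 fold change was −0.51 (SE 0.150). *Abcb4*, the canalicular transporter that moves phosphatidylcholine into bile (chromosome 5 from 8893717 to 8959231), was far more abundant. It ranged from 304.8 to 377.8 CPM with vehicle and from 266.8 to 336.9 CPM with indole, again with all 7 indole-treated mice below the vehicle median, and differed by −0.19 on the log2 scale (SE 0.0698).

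*Flvcr2*, a choline transporter, rested on 10 to 56 reads per mouse and ranged from 0.746 to 2.73 CPM with vehicle and from 0.564 to 1.61 CPM with indole, which is −0.72 on the log2 scale (SE 0.295). *Pla2g7*, a secreted phospholipase that cleaves platelet-activating factor and is made by macrophages, was the gene that was higher, ranging from 2.44 to 4.95 CPM with vehicle and from 3.52 to 7.94 CPM with indole. It differed by 0.49 on the log2 scale (SE 0.212), or by 0.33 without mice G8 and G11, and macrophage markers were highest in G8. The part of macrophages in the *Pla2g7* difference was not tested.

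The list of choline uptake and release had 6 of its 10 genes tested, with a median log2 fold change of 0.10, and 5 were higher and 1, *Flvcr2*, lower with indole. Of 8 tested genes of the choline and ethanolamine branch outside the 10, 0 had an unadjusted *p* below 0.05 and the median was −0.061. The most abundant of the 8, *Etnppl*, which breaks down phosphoethanolamine, was at 479.1±99.4 and 448.9±85.7 CPM (mean±SD, *n*=7 each).

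Breakdown of glycerophosphodiesters and lysophospholipids beyond *Gpcpd1* and *Gde1* was represented by 7 tested genes of 14, since *Gdpd1* to *Gdpd5*, *Enpp6* and *Plb1* had too few reads. None of the 7 had an unadjusted *p* below 0.05, their log2 fold changes ran from −0.12 to 0.15, and the most abundant, the lysophospholipase *Lypla1*, was at 169.6±8.69 and 176.8±18.2 CPM (mean±SD, *n*=7 each). In the list of phospholipases and sphingomyelin enzymes, 11 of 12 genes were tested, 2 of them being *Pld2* and *Pla2g7*, and its most abundant gene *Pla2g12b* was at 45.9±4.44 and 45.7±7.07 CPM (mean±SD, *n*=7 each). The 6 tested lysophospholipid acyltransferases had a median of −0.083 with 5 lower and 1 higher, and *Lpgat1* led them at 126.1±22.2 and 119.6±12.9 CPM (mean±SD, *n*=7 each).

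All 8 genes of phosphatidylcholine transfer and export were tested, with 4 higher and 4 lower. The transfer protein *Stard10* was the most abundant of these, at 1233±121 and 1250±133 CPM (mean±SD, *n*=7 each), or 0.020 on the log2 scale (SE 0.0829). Betaine use and the methyl cycle, to which *Bhmt* and *Pemt* are tied, formed the longest list, with 21 of 21 genes tested, 11 higher and 10 lower, and log2 fold changes between −0.13 and 0.18. Its leading gene *Mat1a*, which makes *S*-adenosylmethionine in hepatocytes, was at 7057±954 CPM with vehicle and 6644±1243 CPM with indole (mean±SD, *n*=7 each), or −0.087 on the log2 scale (SE 0.119).

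Levels were compared between genes per kilobase of exon, as CPM divided by the kilobases of exon (RPKM) with the gene lengths of the deposited table. *Bhmt* stood first at 1319±303 RPKM (SD, *n*=7, vehicle), followed by *Pemt* at 179.6±17.9 RPKM and *Pcyt2* at 60.7±2.92 RPKM. *Chdh* (31.6±3.11 RPKM), *Gde1* (25.3±3.75 RPKM), *Chpt1* (21.6±1.15 RPKM), *Cept1* (18.4±0.871 RPKM) and *Pcyt1a* (16.6±0.829 RPKM) formed a closely spaced middle range. *Gpcpd1* was ninth at 13.6±1.36 RPKM, and *Chka* last at 1.04±0.147 RPKM. The place of *Gpcpd1* depends on the correction for length, since in CPM its vehicle mean of 99.0 lies above those of *Cept1* (57.4) and *Gde1* (42.8).

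Over all 14 mice, each of the 9 neighbouring pairs in that order differed within mice (exact sign-flip permutation test of the log2 ratio over 14 mice, two-sided, adjusted over 9 pairs). The adjusted *p* was 0.000275 for the 4 pairs in which all 14 mice kept the order, from the smallest raw *p* such a test can give, 0.000122. The pair closest to the threshold was *Chdh* over *Gde1* (adjusted *p*=0.0376 by the exact permutation test), where 11 of 14 mice kept the order and the ranges, 20.7 to 40.5 and 19.9 to 31.3 RPKM, overlapped. Because the treated mice carry the differences on which the genes were chosen, the pairs were also compared in the 7 vehicle-treated mice, where the smallest raw *p* is 0.0156. There 7 of the 9 pairs had an adjusted *p* below 0.05 by the same exact permutation test, and *Chdh* over *Gde1* and *Gde1* over *Chpt1* did not (both adjusted *p*=0.0625). *Pcyt1a* exceeded *Gpcpd1* in 6 of the 7 vehicle-treated mice, by a mean log2 ratio of 0.29±0.166 (SD, *n*=7, adjusted *p*=0.0402, exact permutation test). The order itself was set by the means of these same 7 mice. Their *p* values, and those over all 14 mice, are therefore no independent check of the order.

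**Figure D3:**
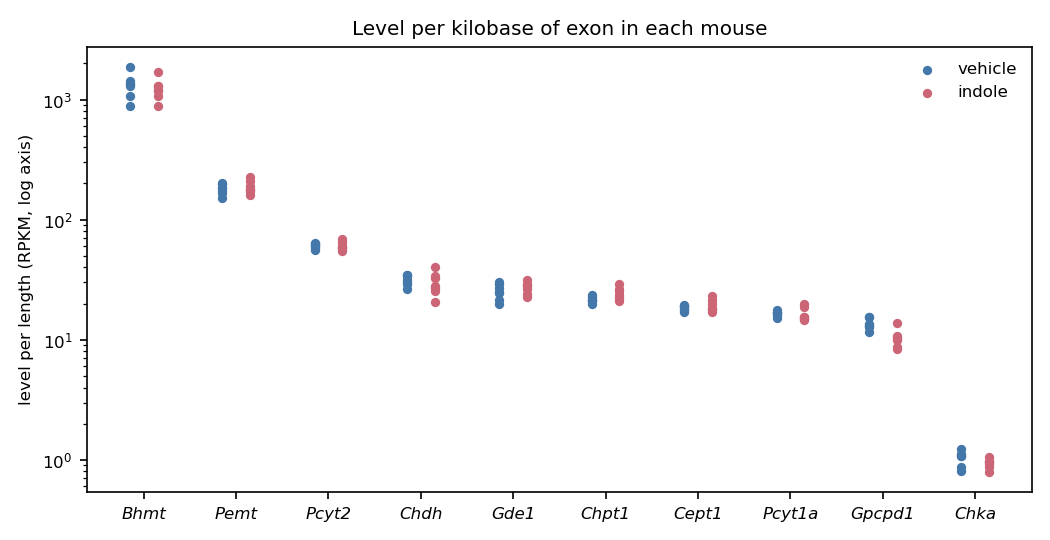
Level per kilobase of exon (RPKM, log axis) of the 10 genes in each mouse, vehicle in blue and indole in red, ordered by the vehicle mean. *Bhmt* (vehicle mean 1319 RPKM) and *Chka* (vehicle mean 1.04 RPKM) lie apart from the rest, and 5 genes from *Chdh* to *Pcyt1a* lie close together.

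The way the genes varied between mice of the same group did not enter the selection and was tested for all 45 pairs. After the group means had been removed from log2 CPM, the Pearson correlation of a pair was compared with 100000 random pairings within groups. Only *Pemt* and *Chdh* passed, and they varied in opposite directions (*r*=−0.80, adjusted *p*=0.036, and Spearman's rho=−0.85, adjusted *p*=0.0117, permutation tests over 14 mice, adjusted over 45 pairs). The relation had the same sign with vehicle (*r*=−0.87) and with indole (*r*=−0.82), and *r* was −0.76 without G5 and G1, the mice farthest from the median of *Pemt*. Its adjusted *p* exceeded 0.05 when any of 10 mice was left out, reaching 0.327 without G5, while *r* stayed between −0.85 and −0.70. Of the 9 pairs that include *Gpcpd1*, 0 had an adjusted *p* below 0.05, and the strongest was that with *Chdh* (*r*=0.56, adjusted *p*=0.364, and rho=0.61, adjusted *p*=0.251, permutation tests), with *r*=0.56 without G14 and G7.

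A property of the libraries moved with several of the genes. For each library, the Spearman correlation was taken, over the 12653 tested genes, between the deviation of a gene from its mean over all mice and its exon length. This length index is positive where long transcripts gave relatively more reads. It ran from −0.257 to 0.291 with vehicle (mean 0.0402±0.216, SD, *n*=7) and from −0.383 to 0.153 with indole (mean −0.0355±0.219, SD, *n*=7), so that the group means were close compared with the spread between mice. Within groups, its Pearson correlation with the level over 14 mice was 0.827 for *Chdh* (6217 bases of exon) and −0.914 for *Pemt* (2104 bases). It was 0.576 for *Gpcpd1* (7289 bases), −0.577 for *Gde1* (1692 bases) and −0.681 for *Cept1* (3116 bases). The sign did not follow length throughout, since *Chpt1* (8324 bases) gave −0.354 and *Bhmt* (5758 bases) −0.564. The mice in which *Gde1* exceeded *Chdh* per kilobase, against the order given above, were G5, G6 and G8. They had the lowest length indices of the 14, −0.383, −0.257 and −0.210. The part of the length index in the order of levels was not tested.

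With the length index removed within groups, the correlation of *Pemt* and *Chdh* was −0.19 in place of −0.80 (adjusted *p*=0.883, permutation test over 14 mice), and that of *Gpcpd1* and *Chdh* was 0.18 in place of 0.56. The difference of *Gpcpd1* between the groups was of similar size with the index as a covariate in the edgeR fit, at −0.36 (SE 0.0808) in place of −0.40, and that of *Chpt1* was 0.15 (SE 0.0668) in place of 0.17. RNA integrity per mouse was not among the values used here, and its part in the length index was not tested.

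**Figure D4:**
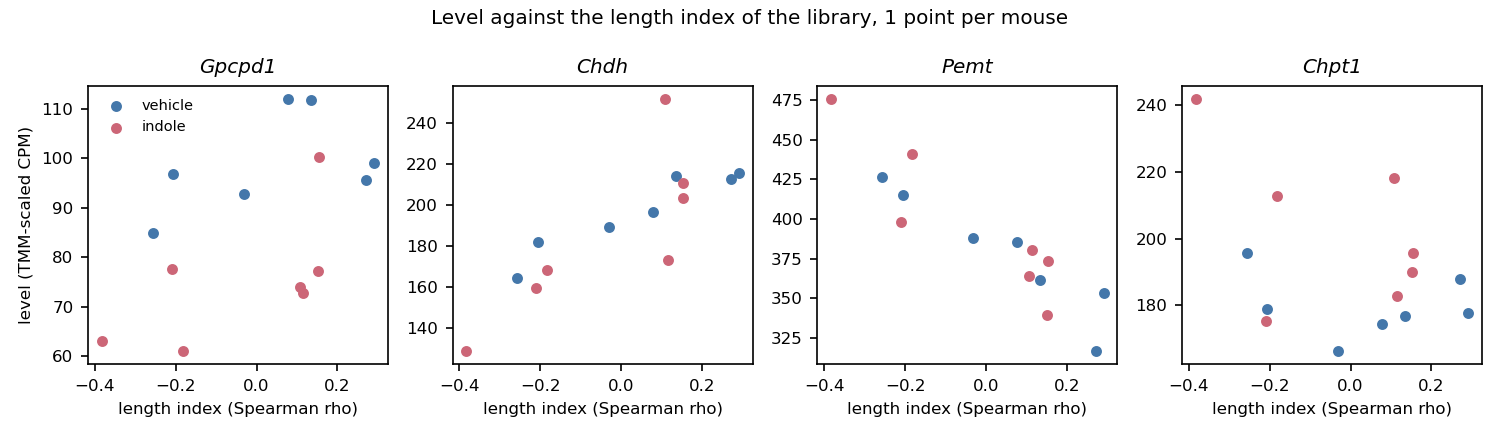
Level in TMM-scaled CPM (vertical axes, not starting at 0) against the length index of the library (horizontal axes, a Spearman rho over genes) for 4 genes, 1 point per mouse, vehicle in blue and indole in red. *Chdh* is higher and *Pemt* lower at a higher index in both groups (within-group *r* of 0.827 and −0.914). *Gpcpd1* is also higher at a higher index (within-group *r* of 0.576), and 6 of its 7 indole values lie below all vehicle values.

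Beyond these genes, the transcripts whose within-group pattern was most like that of *Gpcpd1* among the other 12652 genes tested included *Cxadr* (*r*=0.879), *Tgfbr2* (*r*=0.874), *Usp25* (*r*=0.868) and *Stat6* (*r*=0.854), over 14 mice. The most opposite were *H3c15* (*r*=−0.873), *Mrpl49* (*r*=−0.862), *Smim4* (*r*=−0.860), *Gm49909* (*r*=−0.857) and *Nt5c* (*r*=−0.843). These are the extremes of a long ranking and are given as a description. The first 4 have 4402 to 8187 bases of exon and correlated with the length index by 0.370 to 0.685, and the last 5 have 1020 to 1876 bases and correlated with it by −0.776 to −0.462.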

How the data were processed

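Strand-specific polyA libraries from 14 livers were trimmed, aligned by the authors with HISAT2 to GRCm38 (Ensembl 102) and counted per gene from uniquely mapped reads. The deposited values are these raw counts, without normalisation. The counting tool and its strand setting are not given in the sources used here. Lengths in bases are those of the deposited table. Groups were taken from the sample labels, which give no batch or pairing.

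Counts were tested with edgeR 4.0.16 (TMM, filterByExpr, robust quasi-likelihood fit, Benjamini–Hochberg adjustment over 12653 genes) in R 4.3.3. Standard errors are the log2 fold change divided by the square root of *F*. log2 CPM used a prior count of 2. Permutation tests were drawn with NumPy 2.4.6, and rank correlations used SciPy 1.17.1. Alternatives were DESeq2 1.42.0, limma 3.58.1 voom, other scaling and filters, and leaving out mice. Use of the length index was decided on seeing these data. The pipeline was tested on simulated data for the 12653 genes, with a log2 change of 1 put into 200. It called 158 of them, and 8 others. Smaller changes, such as those of *Gpcpd1* and *Chpt1*, were not put in, so their recovery was not tested.

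The members and lists were chosen with earlier results of these data known. Besides the 10 genes, those named are the list genes with an unadjusted *p* below 0.05, the most abundant gene of each list and the 5 genes most and least like *Gpcpd1*, of which 2 are not reported here. *Bhmt-ps1* was added after its values had been seen. The edgeR *p* values set a difference between groups against the spread between these mice. The permutation *p* values concern ratios or correlations between genes across these mice.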

Additional observations from a re-analysis of the deposited data

Results flagged for a closer look

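For 24 measures (library totals, genes detected, the length index and the named genes), the highest and the lowest of the 7 mice in a group were each set against the next mouse, as a share of the spread from lowest to highest. Of 48 such comparisons, 1 exceeded the critical value of Dixon's test, fewer than the 2.4 that chance gives at about 1 in 20. It was *Gpcpd1* in indole-treated mouse G14, at 100.3 CPM against 77.6 CPM for the next highest mouse and 61.0 CPM for the lowest, a gap of 0.578 of the range. Without G14 the log2 fold change of *Gpcpd1* was −0.48 in place of −0.40. G14 also had the highest length index of the indole group, 0.153, next to 0.152 in G2, where *Gpcpd1* was at 77.3 CPM.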

How the results depend on the processing

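All 230 recomputed log2 fold changes of the 10 genes moved by less than the SD between mice. Leaving out 1 of 7 mice can hardly move a group mean that far, so this is no test of stability and only sizes are described. Values of *Gpcpd1* lay between −0.48 and −0.35. Those of *Bhmt* ran from −0.20 to −0.0015 and those of *Chdh* from −0.17 to −0.015, so their size depended on the setting. The signs of *Pcyt1a* and *Pcyt2*, both close to 0, were not the same in every setting. As a description of the selected genes, *Chpt1* lost its unadjusted *p* below 0.05 when G5, G7, G9, G11, G12 or G13 was left out, and *Chka* gained it without G10. The number of genes with an unadjusted *p* below 0.05, 482, became 1336 without a filter on low counts, which brought 22535 genes into the test, and stayed within 1.5 times of 482 elsewhere. Among the other pathway genes, 4 had an unadjusted *p* below 0.05, and leaving out 1 mouse gave 3 to 7, the highest without indole-treated mouse G2. *Pld2* and *Abcb4* kept an unadjusted *p* below 0.05 in all 23 alternatives, while *Flvcr2* lost it in 4 (without G4, G9, G12 or G14) and *Pla2g7* in 7 (without G5, G8, G10, G11 or G13, without G8 and G11, and with the length index as a covariate). These genes were named for passing in the main fit, and the alternatives reuse the same mice, so this is a description. *Flvcr2* and *Pld2* rest on few reads (10 to 56 and 45 to 137 per mouse), which limits their precision. The single pair of genes that varied together within groups became 2 pairs when group means were not removed. It became 0 pairs without G8 and G11, without G5 and G12 and with the length index removed, the last 2 chosen after the data had been seen, and 0 or 1 when 1 mouse was left out. Without division by gene length, 7 of the 9 neighbouring pairs kept their order, and in vehicle-treated mice alone, a setting chosen after the data had been seen, 7 of the 9 differed. No paired analysis was possible because the groups share no replicate numbers.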
